A study of Lachancea kluyveri with 16 samples.

Results

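The transcript levels of SEF1-VP16 and wild-type (WT) cells of the budding yeast Lachancea kluyveri were compared on the arrays labelled YPGly. The arrays were taken by their labels, 4 of SEF1-VP16 cultures and 4 of WT cultures, 8 of the 16 arrays of the series. The other 8 hold the same strains in cultures labelled YPD. SEF1-VP16 is strain SkSef1VP16NB10-1, in which a viral activation domain, VP16, is joined to the transcription factor Sef1, written SEF1-VP16::FRT in the study's strain list. WT is strain JYL1897. Both are MATa ura3 strains, and each is a single strain, so the mutant stands for 1 clone. Cultures grown overnight in YPD, a rich glucose medium, at 28 °C were diluted to 0.2 OD600 per ml in fresh medium and harvested after 5.5 h at 30 °C. YPGly is the rich medium with glycerol in place of glucose. Each array carried labelled cDNA of 1 culture, and the cultures are labelled biological repeats. The question of the comparison is which genes respond when the activator strength of Sef1 is raised.

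Sef1 is a zinc cluster transcription factor. In Candida albicans it activates the genes of iron uptake when iron is scarce. The TCA cycle oxidises acetyl-CoA in the mitochondria and feeds electrons to the respiratory chain, and several of its enzymes carry iron-sulfur clusters. Iron uptake in yeasts runs through ferric reductases at the cell surface, a permease paired with a copper oxidase, and carriers for siderophores, the small molecules that bind ferric iron. In Saccharomyces cerevisiae these genes are activated by Aft1. Gene names here are those of S. cerevisiae orthologs, and the roles given are known from that species.

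Every level below is the log2 of a gene's processed signal relative to the 75th percentile of its array, so 1 unit is a 2-fold step, and a difference is the SEF1-VP16 mean minus the WT mean. A gene was called at a Benjamini-Hochberg adjusted p of 0.05 or less in the limma fit if it also changed by 1.5-fold or more. The array held 5316 genes, and 5267 were bright enough to test. Of these 121 were called, 2.3% of the genes tested. There were 85 called higher in SEF1-VP16 (1.61%) and 36 called lower (0.684%), and after another background correction, normexp, 106 higher and 21 lower. The median difference over all genes was 0.01, with a 5th percentile of -0.34 and a 95th percentile of 0.42. The median SD between cultures was 0.11 in SEF1-VP16 and 0.12 in WT. Of the called genes 119 had groups that did not overlap, against 813 genes of all tested with every SEF1-VP16 array above every WT array (15.4%) and 516 with every one below (9.8%). A change of at least 2-fold was reached by 21 genes called higher and 8 called lower. The second probe of the gene moved the same way for 119 of the 121 called genes, and by 1.5-fold or more for 90. It read the same labelled cDNA on the same arrays, so it is not a further culture.

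The arrays differed in ways that went with the strain. The dark control spots lay at -9.10, -9.25, -9.22 and -10.18 on the SEF1-VP16 arrays and at -10.68, -10.61, -10.85 and -10.98 on the WT arrays, without overlap. The share of gene probes well above background was between 97.2% and 98.4% on SEF1-VP16 arrays and between 98.8% and 99.0% on WT arrays. All 8 arrays lay on 1 slide, with each strain in its own row of the slide, so strain and row cannot be told apart. The 167 genes with a mean level of 3 or more had a median difference of 0.27, which became 0.01 once the arrays were quantile-normalised. The 124 genes below -6 had a median of -0.13. The part of these array differences in the gene results was not tested, and they are set beside the results that lie at either end. The labels of the media also need care. In WT the gluconeogenic gene PCK1 and the glyoxylate cycle gene ICL1 were lower on arrays labelled YPGly than on arrays labelled YPD, with differences of -5.92 and -5.99 (YPGly minus YPD). The glycerol kinase gene GUT1 stood at -1.54 in the same contrast. These 3 genes are repressed by glucose in S. cerevisiae, so the media are named here only as labelled, and medium and slide cannot be told apart. The study's supplements place the strain differences of these arrays under YPGly in the full gene lists and under YPD in a summary of Sef1-bound genes outside the cycle, so they do not settle which medium the arrays stand for.

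**Figure D1:**
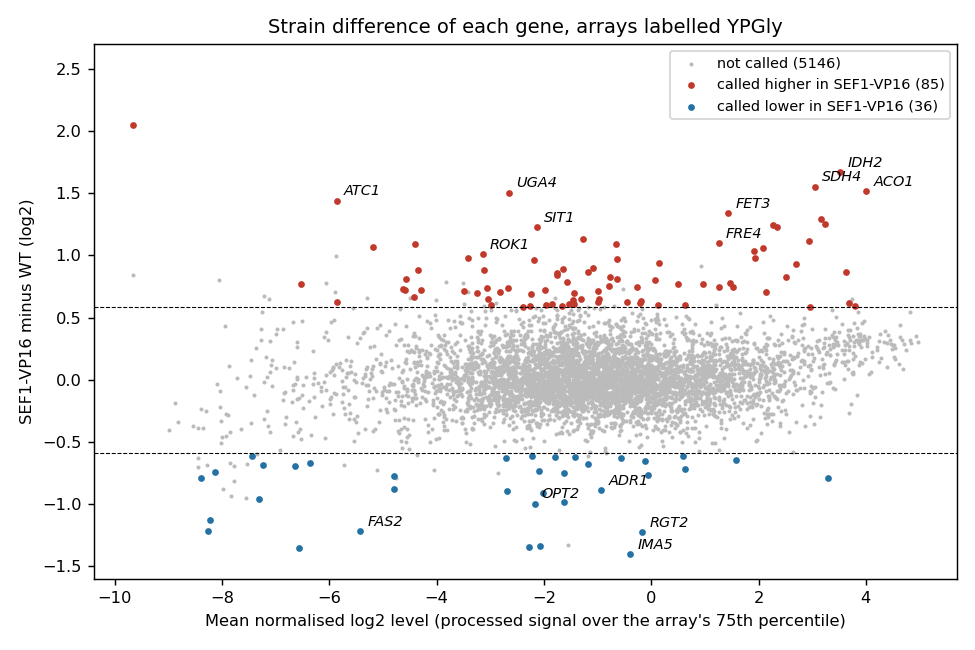
Difference between SEF1-VP16 and WT (log2, vertical axis) against the mean normalised log2 level of the 8 arrays labelled YPGly (horizontal axis), 1 point per gene. The 85 genes called higher and 36 called lower are coloured, the broken lines mark 1.5-fold, and the brightest genes sit above 0, with a median of 0.27 at levels of 3 or more.

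The targeted gene itself was not more abundant in the mutant. SEF1 stood at -2.04, -2.21, -2.16 and -2.09 in SEF1-VP16 and at -1.99, -1.77, -1.66 and -1.65 in WT. The groups did not overlap, and SEF1-VP16 was 0.36 lower (SE 0.10, adjusted p = 0.045), which is 1.28-fold and below the fold threshold. Which part of the gene its probe reads is not known here. A fusion at the native gene still yields a SEF1 transcript, now carrying the VP16 sequence, so the level does not check the strain label. The difference on arrays labelled YPD was -0.39.

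Among the lists drawn up by function, the TCA cycle had the most called genes. Of 21 genes of the cycle and its isoenzymes that were tested, 13 rose, none fell and 8 were not called. Their median difference was 0.93, against 0.01 over all genes. The share called higher was 61.9%, against 1.61% of all genes. The rises covered every step from citrate synthase to malate dehydrogenase except that of succinyl-CoA ligase, although the citrate synthase step rests on CIT1 alone, whose call was lost without any 1 of 8 arrays and under 9 other settings.

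IDH2 encodes a subunit of the NAD-dependent isocitrate dehydrogenase, the step that sets the pace of the cycle. Its level was 4.25, 4.37, 4.23 and 4.59 in SEF1-VP16 and 2.87, 2.61, 2.69 and 2.60 in WT. All SEF1-VP16 arrays were far above all WT arrays, with a difference of 1.67 (SE 0.11, adjusted p = 1.47e-07), or 3.18-fold. The other subunit, IDH1, stood at 3.90, 3.83, 3.79 and 3.92 in SEF1-VP16 and at 2.77, 2.53, 2.63 and 2.52 in WT. It rose by 1.25, again with no overlap.

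ACO1 encodes aconitase, an iron-sulfur enzyme that turns citrate into isocitrate. Its level was 4.58, 4.79, 4.53 and 5.15 in SEF1-VP16 and 3.43, 3.02, 3.35 and 3.19 in WT. The strains were well apart, by 1.52 (SE 0.18), although ACO1 had one of the wider spreads among the enzymes of the cycle.

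Succinate dehydrogenase, which also serves as complex II of the respiratory chain, rose in all 4 subunits. SDH4, a membrane anchor, stood at 3.73, 3.89, 3.83 and 3.83 in SEF1-VP16 and at 2.26, 2.39, 2.20 and 2.22 in WT. The cultures of each strain lay close together, and the difference was 1.55 (SE 0.10, adjusted p = 9.64e-08). The other anchor, SDH3, rose by 1.12. The catalytic subunits, the iron-sulfur protein SDH2 and the flavoprotein SDH1, rose less, by 0.93 and 0.87. The flavoprotein has an assembly factor, SDH8, which stood at -0.60, -0.94, -0.39 and -1.09 in SEF1-VP16 and at -1.65, -1.18, -1.89 and -1.76 in WT. It rose by 0.87 with wider spread (adjusted p = 0.031), and the call was lost without any 1 of 5 arrays.

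The oxoglutarate dehydrogenase genes KGD1 and KGD2 rose by 1.23 and 1.06. LPD1, the partner of both that also serves pyruvate dehydrogenase, stood at 2.81, 2.91, 2.66 and 2.97 in SEF1-VP16 and at 2.48, 2.34, 2.48 and 2.46 in WT. The groups did not overlap, but the difference of 0.40 (adjusted p = 0.033) was under 1.5-fold. YMR31, whose product ties the subunits of that enzyme together and which was picked after its value was seen, rose by 0.75. The fumarase gene FUM1 rose by 1.25 and the mitochondrial malate dehydrogenase gene MDH1 by 1.29. IDP3, for an NADP-dependent isocitrate dehydrogenase, rose by 1.09. For the citrate synthase gene CIT1, 1 SEF1-VP16 spot was flagged as an outlier and left out. The remaining levels were 3.99, 4.02 and 4.28 in SEF1-VP16 and 3.52, 3.42, 3.66 and 3.42 in WT. CIT1 differed by 0.59 (adjusted p = 0.042), just past the fold threshold, and it fell below it when the flagged spot was kept.

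The 8 genes of the cycle that were not called differed by -0.26 to 0.40. The succinyl-CoA ligase genes had differences of -0.03 for LSC1 and -0.26 for LSC2, each with an adjusted p above 0.2. LSC1 stood at 2.14, 2.27, 2.04 and 2.10 in SEF1-VP16 and at 2.31, 2.08, 2.22 and 2.07 in WT, with overlapping groups. The extramitochondrial malate dehydrogenases MDH2 and MDH3 had differences of -0.04 and -0.03. A set of 7 genes of the cycle lay at levels of 3 or more, where the median gene differed by 0.27, and CIT1 with its 0.59 is one of these. After quantile normalization the median of the list was 0.77.

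**Figure D2:**
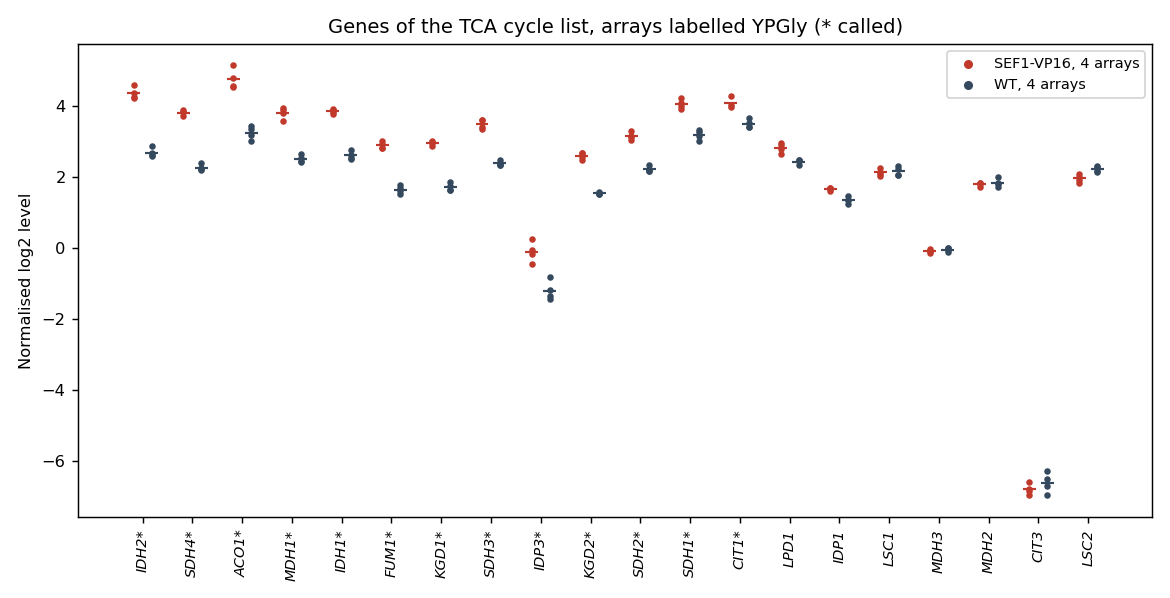
Normalised log2 level (vertical axis) of 20 tested genes of the TCA cycle list on each array labelled YPGly, SEF1-VP16 in red on the left of each pair and WT in dark blue on the right, 1 point per culture with the group mean as a bar. The 13 called genes carry a star and lie apart in the 2 strains, from IDH2 with a difference of 1.67 to CIT1 with 0.59.

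The rises in the cycle were set against a list of Sef1 binding sites that the study made by chromatin immunoprecipitation in cells not analysed here. Of the 21 genes, 15 lay at the 50 strongest peaks of that list, and 13 of these were the ones that rose, with LPD1 and MDH2 not called. None of the other genes of the cycle, at weaker peaks or on no binding list, was called. The 38 other tested genes at the 50 strongest peaks had 3 called higher. These were SPS19 (SAKL0D11484g), for a peroxisomal enzyme of fatty acid oxidation, with a difference of 0.83, BRR6, for a nuclear envelope protein, with 0.64, and the unnamed SAKL0B05940g with 0.78. Over all genes assigned to peaks, 53 tested genes at ranks 1 to 50 had 16 called higher (30.2%) and 0 lower (median 0.34). The 135 tested genes at ranks 51 to 200 had 9 higher and 1 lower (median 0.03). The 529 tested genes beyond rank 200 had 5 higher and 4 lower (median 0.03), near the 1.61% and 0.684% of all genes. A peak between 2 genes is assigned to both, so neighbouring members share a peak.

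Of the TCA genes at peaks, 6 are read away from a neighbour across the same stretch, which gives each a divergent partner. None of the 6 partners was called on arrays labelled YPGly, beside 2.3% of all genes, so the lack of calls among so few says little. All 6 differences lay above 0, with a median of 0.22, against 0.01 over all genes. UBA2, for a SUMO-activating enzyme, lies opposite IDH2. It stood at -0.36, -0.38, -0.42 and -0.49 in SEF1-VP16 and at -0.81, -0.78, -0.74 and -0.76 in WT. The groups did not overlap, but the difference of 0.36 (adjusted p = 0.042) was under 1.5-fold and small beside the 1.67 of IDH2. On arrays labelled YPD UBA2 was called higher, the 1 partner called there, by 0.64 (adjusted p = 0.00099) beside 1.58 for IDH2. FMC1, needed to assemble the ATP synthase, differed by 0.31 opposite IDH1 with overlapping groups. MAS1, for a subunit of the mitochondrial processing peptidase, differed by 0.24 opposite SDH4. AVT3, a vacuolar amino acid exporter, differed by 0.20 opposite SDH1. SLX4, for a subunit of a DNA repair nuclease, differed by 0.08 opposite KGD2. ARP8, for a subunit of a chromatin remodeller, also differed by 0.08, opposite LSC1 with its -0.03.

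Other mitochondrial genes changed in fewer members. Of 11 carriers of the inner membrane that were tested, 4 rose and none fell (median 0.31), beside 1.61% of all genes called higher. Some names come only from the study's lists of genes changed on these arrays. Of the 10 carriers named in its other lists, 3 rose. YHM2, the carrier of citrate and oxoglutarate, stood at 1.36, 1.2, 1.49 and 1.33 in SEF1-VP16 and at 0.45, 0.60, 0.41 and 0.84 in WT, without overlap and with a difference of 0.77. Its call was lost without any 1 of 4 arrays, and without SEF1-VP16 replicate 3 and WT replicate 2 together. The ornithine carrier ORT1 rose by 0.71 and AGC1, which exchanges aspartate and glutamate, by 0.63. RIM2, a carrier of pyrimidine nucleotides, rose by 0.60, with the call lost without any 1 of 9 arrays. The respiratory chain and ATP synthase had 1 of 25 tested genes called, to be set beside 2.3% of all genes. It was ATP20, for a subunit of the ATP synthase, with 0.62. ATP20 is named only in the lists from these arrays, and of the 6 ATP synthase genes named in other lists 0 were called. Mitochondrial ribosomal proteins had 0 of 21 called (median 0.23). NFU1, for a protein that hands over iron-sulfur clusters, was the 1 called gene of 7 tested in that pathway, beside 2.3% of all genes. It stood at 0.42, 0.38, 0.62 and 0.45 in SEF1-VP16 and at -0.42, -0.15, -0.44 and -0.33 in WT. Its rise was 0.80 (SE 0.13). NFU1 too is named only in the lists from these arrays, and of the 6 genes of the pathway named in other lists 0 were called. Of 4 further mitochondrial genes picked after their values were seen, MIC17, for a protein of the intermembrane space, rose most, by 0.98.

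Genes of iron uptake formed the next group. Of 30 tested genes for ferric reductases, permeases and oxidases, siderophore carriers, copper supply and the regulators of these, 10 rose and none fell. The other 20 were not called. Over all genes 1.61% were called higher. The ferric reductase list had a median of 0.30, the permease and oxidase list 0.24 and the siderophore list 0.39, against 0.01 over all genes.

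At the cell surface, FET3, the copper oxidase, stood at 2.05, 2.18, 2.04 and 2.13 in SEF1-VP16 and at 0.64, 0.75, 0.87 and 0.78 in WT. It rose by 1.34 (SE 0.11, adjusted p = 3.05e-06), or 2.53-fold. Its partner FTR1, the iron permease, stood at 2.39, 2.40, 2.35 and 2.59 in SEF1-VP16 and at 1.43, 1.34, 1.45 and 1.34 in WT. FTR1 rose by 1.04, and for both genes of the high-affinity pair the strains did not overlap. CCC2 (SAKL0G01650g), which loads copper into the oxidase, rose by 0.60, and the second CCC2 gene, SAKL0H20108g, had a difference of -0.24. The vacuolar paralogs FTH1 and FET5 were not called. CCC1, which stores iron in the vacuole, stood at -0.92, -0.72, -0.79 and -0.63 in SEF1-VP16 and at -0.44, -0.29, -0.43 and -0.43 in WT. The groups did not overlap, but the difference of -0.37 (adjusted p = 0.015) was under 1.5-fold.

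Ferric reductases were called in 3 of 8 cases. FRE5 stood at -0.77, -0.81, -0.79 and -0.41 in SEF1-VP16 and at -1.87, -1.85, -1.80 and -1.80 in WT, and FRE5 rose by 1.14. FRE4 stood at 1.83, 1.91, 1.66 and 1.82 in SEF1-VP16 and at 1.04, 0.64, 0.70 and 0.45 in WT, a rise of 1.1. The second probe gave a rise of 2.11 for FRE4 and 1.41 for FRE5, so the size for FRE4 depends on the probe. All SEF1-VP16 arrays were above the WT arrays for both genes, though single arrays stood off within a strain. Both lie in a tandem row with FRE3 and FRE2, in which the locus tags follow each other. FRE2, at the far end, rose by 0.88, while FRE3 between them stood at -4.30, -4.23, -4.44 and -4.09 in SEF1-VP16 and at -4.07, -4.52, -4.09 and -4.27 in WT. FRE3 had a difference of -0.03 and overlapping groups.

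The siderophore carrier SIT1 stood at -1.47, -1.5, -1.49 and -1.6 in SEF1-VP16 and at -2.84, -2.69, -2.72 and -2.72 in WT. It had one of the smallest errors of the comparison and rose by 1.23 (SE 0.08, adjusted p = 9.64e-08). ARN1, a related carrier, stood at -2.7, -2.58, -2.78 and -2.81 in SEF1-VP16 and at -3.95, -3.31, -2.91 and -3.29 in WT. Its WT cultures were far apart, and the call of 0.65 was lost without any 1 of 7 arrays. AFT1, the iron-responsive activator, stood at -1.28, -1.55, -1.15 and -1.34 in SEF1-VP16 and at -2.29, -2.16, -2.12 and -2.18 in WT. The strains did not overlap, and AFT1 rose by 0.86 (SE 0.12). CTH1, whose product destabilises mRNAs of iron-using proteins, rose by 0.84. Of the 10 genes that rose, FRE4, FRE2 and AFT1 were on the list of Sef1-bound genes, all outside the 50 strongest peaks.

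**Figure D3:**
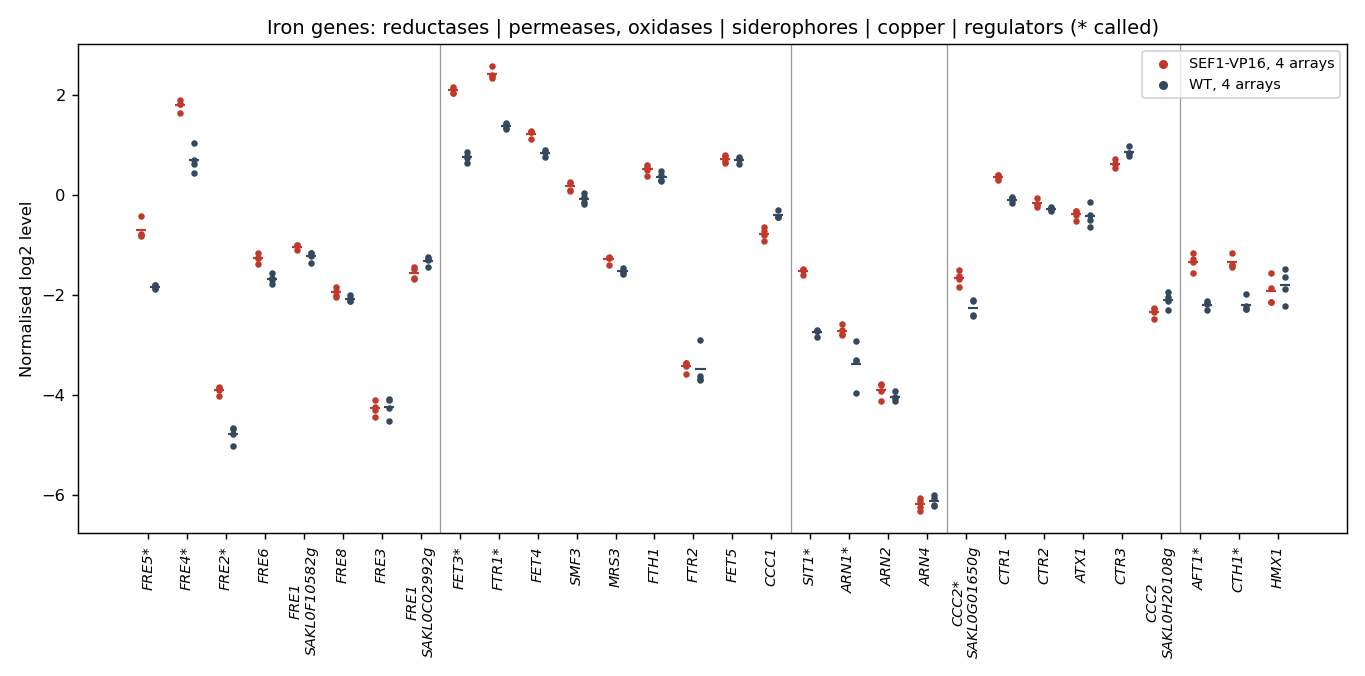
Normalised log2 level (vertical axis) of 30 genes of iron uptake and its regulators on each array labelled YPGly, SEF1-VP16 in red on the left of each pair and WT in dark blue on the right, with group means as bars and classes divided by lines. The 10 starred genes were called higher, with FET3 (1.34) and SIT1 (1.23) the farthest apart, and most of the rest overlap or nearly touch.

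The study also listed the genes that low iron raised or lowered, from arrays not analysed here. Of 111 tested genes raised by low iron, 11 were higher in SEF1-VP16 and 6 lower, with a median of -0.01, and the 10 iron genes above were 10 of those 11. The 6 lower ones included IMA5 (SAKL0A00154g) and PDC1 (SAKL0F04334g), described next. Of 72 tested genes lowered by low iron, 6 were higher and 0 lower, with a median of 0.13. These 6 were SDH4, SDH2, SDH1, YHM2, GPP1 and CYB5, for cytochrome b5. The counts of both lists are to be set beside 1.61% called higher and 0.684% called lower over all genes.

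Among the genes called lower, those for the use of sugars stood out in number. Of 22 tested genes for disaccharides, galactose and hexose transport, 8 fell and none rose, beside 0.684% of all genes called lower. The disaccharide and galactose list had 5 of 10 called lower and a median of -0.81.

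The isomaltase genes, whose products split alpha-linked glucose pairs, held the largest falls among genes well above background on all 8 arrays. IMA5 (SAKL0A00154g) stood at -1.0, -0.65, -1.36 and -1.38 in SEF1-VP16 and at 0.47, 0.23, 0.52 and -0.0004 in WT. All SEF1-VP16 arrays were below all WT arrays, with a difference of -1.40 (SE 0.17, adjusted p = 0.000107). IMA5 (SAKL0C00176g) and IMA1 (SAKL0C02112g) both had differences of -1.34. The array design marks the probes of these 2 genes as cross-hybridising with each other, so they may read the same transcripts. IMA1 (SAKL0A05698g) fell by 0.74 and lies beside MAL11, the maltose permease gene, which stood at -4.87, -4.96, -5.52 and -5.59 in SEF1-VP16 and at -4.74, -3.86, -4.11 and -4.71 in WT. The strains came close to each other for MAL11, and its call of -0.88 was lost without any 1 of 4 arrays. An invertase gene, SUC2 (SAKL0B00220g), stood at -2.21, -1.84, -2.46 and -2.35 in SEF1-VP16 and at -0.79, -1.03, -0.67 and -1.04 in WT. The groups were far apart on these arrays, but with the spread shared over all 16 arrays the difference of -1.33 had an SE of 0.45 and was not called (adjusted p = 0.089). The other SUC2 gene, SAKL0D11946g, had a difference of 0.29 with overlapping groups.

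Hexose sensing and transport had 3 of 12 called lower (median -0.19), beside 0.684% of all genes. Of the 11 that are named in the study's lists from other data, 2 were called lower. RGT2 (SAKL0D10450g), named for a glucose sensor of the plasma membrane, stood at -0.79, -0.28, -1.06 and -0.97 in SEF1-VP16 and at 0.20, 0.32, 1.01 and 0.27 in WT. The strains did not overlap and the difference was -1.23 (SE 0.19). The second RGT2 gene, SAKL0B00264g, had a difference of -1.35, but it was well above background on only 2 of the 4 SEF1-VP16 arrays. Under another background correction, normexp, its difference was -0.004 and its call was lost. HXT1 (SAKL0B12540g), named for a low-affinity hexose transporter, stood at -2.11, -1.88, -2.23 and -2.22 in SEF1-VP16 and at -1.08, -1.25, -0.83 and -1.36 in WT, a difference of -0.98. Other transporters such as HXT2 and HXT3 differed by 0.13 and 0.12 with overlapping groups. For HXT4, 3 of the 8 spots were flagged and left out.

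**Figure D4:**
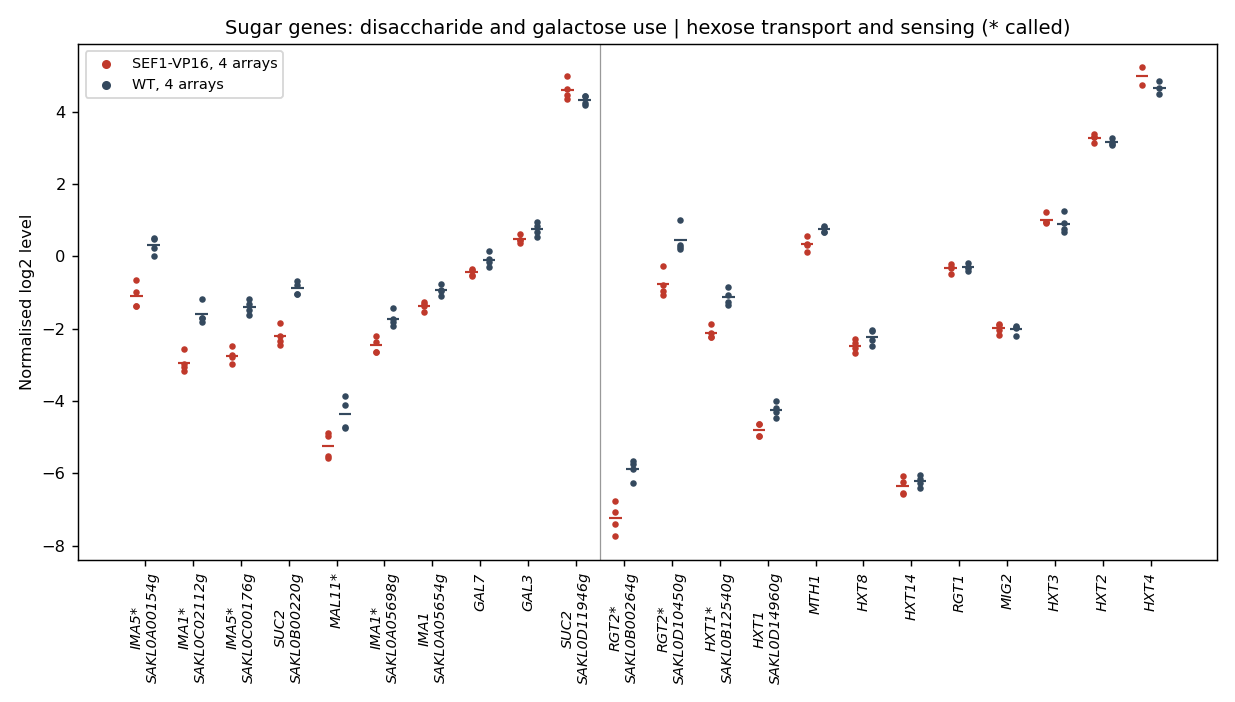
Normalised log2 level (vertical axis) of 22 genes of sugar use and transport on each array labelled YPGly, SEF1-VP16 in red on the left of each pair and WT in dark blue on the right, with group means as bars; spots flagged as outliers are left out, so HXT4 has fewer points. The 8 starred genes were called lower, and SUC2 (SAKL0B00220g), without a star, is apart on these arrays at -1.33.

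Further falls were spread over functions. OPT2, for an oligopeptide transporter, stood at -2.66, -2.55, -2.75 and -2.73 in SEF1-VP16 and at -1.68, -1.77, -1.63 and -1.62 in WT. Its levels were tight in both strains, and the difference was -1.0 (SE 0.10, adjusted p = 1.79e-05). ADR1, an activator of genes for non-fermentable carbon, stood at -1.38, -1.15, -1.42 and -1.56 in SEF1-VP16 and at -0.50, -0.55, -0.19 and -0.72 in WT, a difference of -0.89. ERT1, a regulator of gluconeogenic genes picked after its value was seen, rose by 0.71. LPX1, for a peroxisomal lipase, and TOS8, for a homeodomain protein, had differences of -0.91 and -0.90. ITR1 (SAKL0E06864g), for an inositol transporter, stood at 2.74, 3.33, 2.66 and 2.88 in SEF1-VP16 and at 3.78, 3.57, 3.95 and 3.48 in WT. It was among the brightest genes and fell by 0.79, opposite in sign to the median of that class. One of 3 pyruvate decarboxylase genes, PDC1 (SAKL0F04334g), fell by 0.72, the only 1 of 16 tested genes of the glycolysis list that was called. FAS2 (SAKL0E08580g), named for a fatty acid synthase subunit, had a difference of -1.22 with wide spread in both strains (adjusted p = 0.034).

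Rises outside the lists above were led by UGA4 (SAKL0G14762g), named for a permease of gamma-aminobutyric acid. It stood at -2.04, -1.89, -2.02 and -1.69 in SEF1-VP16 and at -3.44, -3.54, -3.31 and -3.36 in WT, a rise of 1.5 (SE 0.16). ATC1 stood at -5.42, -5.70, -4.55 and -4.90 in SEF1-VP16 and at -7.03, -6.36, -6.74 and -6.21 in WT. Neither strain was tight for ATC1, and the rise was 1.44. The rule that named ATC1 asks for groups without overlap, so their separation adds nothing to the call. The unnamed SAKL0D15334g rose by 1.09. PRX1 (SAKL0B04686g), for a mitochondrial peroxiredoxin, was the 1 called gene of 21 tested in the stress list, beside 2.3% of all genes. It rose by 0.81, and its second probe gave 0.37. PRX1 is named only in the study's lists from these arrays, and of the 20 stress genes named in its other lists 0 were called. ALD5, for a mitochondrial aldehyde dehydrogenase, rose by 0.70 and THI73 also by 0.70. JEN1 (SAKL0D04510g), named for a lactate and pyruvate permease, had a rise of 0.88 whose call was lost without any 1 of 8 arrays. GPP1, for the phosphatase that makes glycerol, rose by 0.59.

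Few listed genes that make ribosomes were called. Picked after their values were seen, 18 called genes for ribosome assembly or RNA polymerase I transcription rose by 0.60 to 1.01. Without SEF1-VP16 replicate 3 and WT replicate 2, which deviated together, 11 of the 18 lost their call. PXR1, 1 of the 18, had overlapping groups and lost its call without any 1 of 13 arrays. ROK1, for an RNA helicase of small-subunit assembly, stood at -2.85, -2.86, -2.46 and -2.38 in SEF1-VP16 and at -3.97, -3.65, -3.68 and -3.28 in WT. RRN3, an initiation factor of RNA polymerase I, rose by 0.74 and NSR1, a nucleolar protein, by 0.75. The names of 17 of the 18 come only from the study's own lists of genes changed on these arrays, so no share of ribosome genes can be read from them. Of 39 tested ribosome assembly genes named in the study's other lists, 0 were called, with a median of 0.33, and 17 had all SEF1-VP16 arrays above all WT arrays, to be set beside 15.4% of all genes. Ribosomal protein genes had 1 of 73 called, RPL8A with 0.62, beside 2.3% of all genes, and a median of 0.30. Of these 73 genes 50 lay at levels of 3 or more, where the median of all genes was 0.27, and their own median was 0.08 after quantile normalization. Relative to its mean over the 8 arrays, the ribosomal protein list lay at 0.11, 0.01, 0.27 and 0.21 on the SEF1-VP16 arrays and at -0.20, 0.02, -0.22 and -0.21 on the WT arrays. WT replicate 2 lay above SEF1-VP16 replicate 2, so this group overlapped.

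Some calls were on probes near background. The largest rise of all, 2.05 for the unnamed SAKL0G09372g, came from a probe that was well above background on 1 of 8 arrays, so no fold is given. Of the 36 genes called lower, 10 were not well above background on all 8 arrays, and 4 of them were not on any SEF1-VP16 array. The dark control spots lay at a higher relative level on the SEF1-VP16 arrays, as given above. That is opposite in direction to the genes called lower, and its part in these calls was not tested. For these 4 genes the bound that the dimmest measurable signal on the SEF1-VP16 arrays allows was under 1-fold, so no fold is given.

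Called genes were more frequent near the chromosome ends. Among the outermost 20 array genes of each chromosome end, by the order of the locus tags, 8 of 300 tested were called higher and 11 lower, 6.33% in all, against 2.05% elsewhere. The end genes called lower included IMA5 (SAKL0A00154g), IMA5 (SAKL0C00176g), RGT2 (SAKL0B00264g) and HXT1 (SAKL0B12540g), and 5 unnamed genes among the dim ones above. For these 5 the second probe gave 1.31 (SAKL0F00132g), 0.13 (SAKL0B12804g), -0.07 (SAKL0G00132g), and -0.72 for both SAKL0E00154g and SAKL0G19866g. The excess at the ends thus rests in part on falls that the second probe did not show. Called neighbours in tag order formed 6 pairs, each called in 1 direction. They included FRE4 with FRE5, MAL11 with IMA1 (SAKL0A05698g), and SIT1 with PCL1, for a cyclin.

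The strain difference was also set against that on the arrays labelled YPD, which share no array with it. There 112 genes were called (2.13%), and 34 genes were called in both media in the same direction. The difference between media itself, labelled YPGly minus labelled YPD, was tested as an interaction and called for 60 genes (1.14%), 34 higher (0.646%) and 26 lower (0.494%). It was called for 26 of the 121 genes, and 18 of the 60 were called in neither medium alone.

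The median difference of the TCA list was 0.93 labelled YPGly and 0.57 labelled YPD. The strain differences were 1.67 and 1.58 for IDH2, 1.23 and 1.22 for KGD1, 1.12 and 0.81 for SDH3, 1.06 and 0.78 for KGD2, 1.09 and 0.57 for IDP3 and 0.93 and 0.55 for SDH2 (labelled YPGly, then labelled YPD). IDP3, SDH2 and CIT1 were not called on arrays labelled YPD. MDH1 was the 1 of 21 for which the interaction was called, with 1.29 labelled YPGly and 2.02 labelled YPD (interaction -0.73, SE of the 2 differences 0.09 each, adjusted p = 0.011). Among the 10 iron genes, FRE5, FRE4, FTR1, CCC2 (SAKL0G01650g) and CTH1 had differences of -0.07, -0.07, 0.05, -0.32 and 0.01 labelled YPD, and the interaction was called for each. FET3 had differences of 1.34 and 0.67 and SIT1 of 1.23 and 0.78, and for neither was the interaction called (adjusted p = 0.052 and 0.055). FRE2 had 0.88 and -0.06, and its interaction of 0.94 was not called either (adjusted p = 0.066). ARN1 had 0.65 and 0.24 (interaction 0.41, adjusted p = 0.50), and AFT1 had 0.86 and 0.70 (interaction 0.15, adjusted p = 0.74).

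The 4 isomaltase genes called lower on arrays labelled YPGly were not called on arrays labelled YPD. IMA5 (SAKL0A00154g) had -1.40 labelled YPGly and -0.06 labelled YPD, an interaction of -1.34 (adjusted p = 0.010). The interaction was also called for the other 3. YHR022C, of unknown role here, had 1.07 labelled YPGly and -0.42 labelled YPD, the largest positive interaction called among the named genes (1.49). For UGA4 (SAKL0G14762g) the rise was smaller, 1.5 labelled YPGly and 2.7 labelled YPD, and for NFU1 it was 0.80 and 1.66. Among the named genes, the called interactions largest in size were those of BIO3 (SAKL0H11528g), for a biotin synthesis enzyme, with -0.63 and 1.30, and of CTR3, for a copper transporter, with -0.23 and 1.5. Both were thus on opposite sides of 0 in the 2 labelled media, although CTR3 was not called on arrays labelled YPGly.

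**Figure D5:**
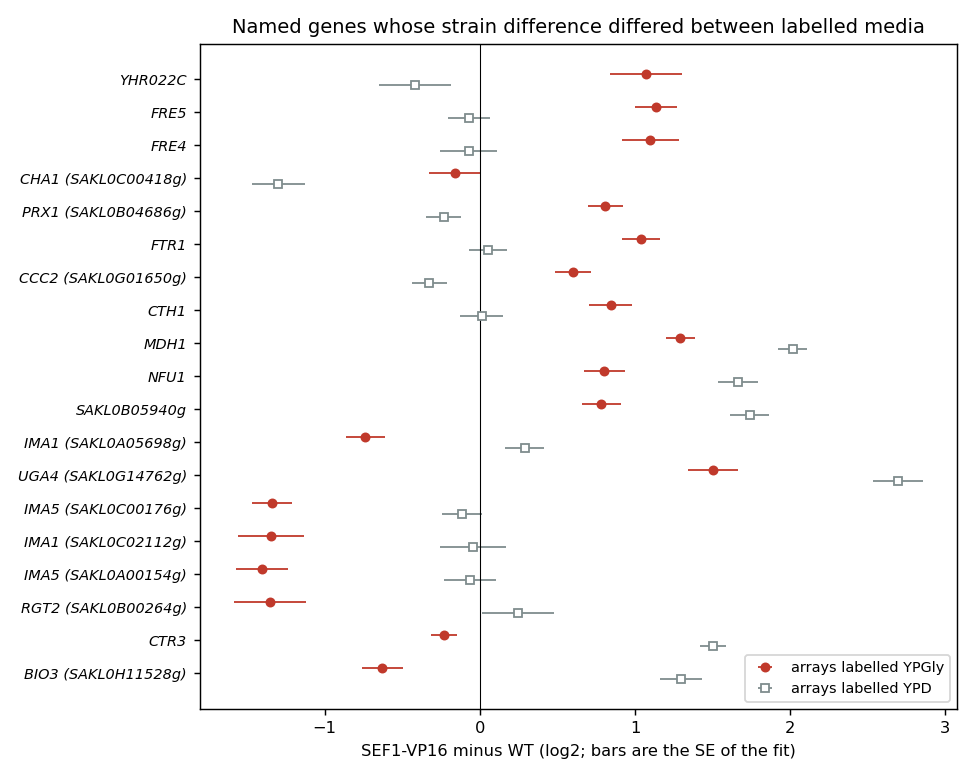
Difference between SEF1-VP16 and WT (log2, horizontal axis) for the 19 genes named by rule whose interaction was called, filled red circles for arrays labelled YPGly and open squares for arrays labelled YPD, with bars of 1 SE of the fit. FRE5, FRE4 and FTR1 lie near 1.1 and near 0, the 4 isomaltase genes lie below -0.7 labelled YPGly and near 0 or above labelled YPD, and CTR3 and BIO3 (SAKL0H11528g) lie on opposite sides of 0.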

How the data were processed

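The authors hybridised cDNA of 1 culture per array to custom 1-colour Agilent arrays and extracted spots with Agilent Feature Extraction 10.5.1.1. The deposited scanner files give intensity values, per the file headers a background-subtracted, detrended processed signal and the median intensity of spot and local background, and the other flags of 0 or 1 set by that software. The authors also deposited log2 values scaled to the 75th percentile of each array. Set against the scanner files, these differed by 1 constant per array and gave the same 121 calls.

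Here log2 processed signals were taken relative to each array's 75th percentile, control spots and flagged spots (5 to 77 per array labelled YPGly) were left out, no gene spot was saturated, and the brighter probe over all 16 arrays stood for each gene. A gene was tested if 1 group or more had it well above background throughout. A single limma model with a mean per group was fitted to the 16 arrays (limma 3.58.1 in R 4.3.3, with lmFit, contrasts.fit, eBayes, Benjamini-Hochberg adjustment over 5267 genes). Precision is limited by having 4 arrays in each group. The code was tested on simulated data.

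Named by rule were SEF1, AFT1, the 15 largest rises and 12 largest falls among called genes well above background on all 8 arrays and without overlap, called members of the lists given by symbol, all divergent partners, called genes at the 50 strongest peaks, and the 4 largest interactions in each direction. Members, lists and rules were chosen with earlier results of these data known. Genes singled out beyond the rule, the level classes and the assembly genes named elsewhere were chosen after their values were seen. Names came from the study's lists and covered 2104 genes tested. They covered 105 of the 121 called genes, 36 of which were named only in its lists from these arrays. Alternatives were other scalings, background correction, probe choices, filters, array weights, the methods' t-test, a replicate block and arrays left out. The files hold no mean spot signal, so normexp used the median. No set test was run. One member of the TCA cycle list is counted but not reported here by itself.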

Additional observations from a re-analysis of the deposited data

Results flagged for a closer look

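Single arrays stood apart from the other 3 of their group for 12 of 182 gene groups checked (91 named genes, each in both strains). Chance gives about 1 such group in 20. On SEF1-VP16 arrays, replicate 4 was high for FRE5 (-0.41, others -0.81 to -0.77) and YTM1 (-0.49, others -0.71 to -0.68), and replicate 3 for CTH1 (-1.15, others -1.43 to -1.39). Among WT arrays, replicate 1 stood off for SIT1 (-2.84, others -2.72 to -2.69), SDH3 (2.47, others 2.35 to 2.36) and SLX4 (-2.20, others -2.00 to -1.96). WT replicate 3 was low for RPL8A (2.84, others 3.50 to 3.62) and CIC1 (-0.29, others -0.15 to -0.14) and high for RGT2 (SAKL0D10450g) (1.01, others 0.20 to 0.32). WT replicate 4 was low for TOS8 (-2.45, others -2.18 to -2.15) and LPX1 (-1.93, others -1.47 to -1.42) and high for UTP5 (-1.58, others -1.90 to -1.85).

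SEF1-VP16 replicate 4 also had a larger share of probes well above background (98.4%, others 97.2% to 97.4%) and darker control spots (-10.18, others -9.25 to -9.10).

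The strain difference labelled YPGly minus that labelled YPD was called for 24 of the named genes, 13 higher and 11 lower. The higher ones were YHR022C (1.49), FRE5 (1.2), FRE4 (1.17), CHA1 (SAKL0C00418g) (1.14), PRX1 (SAKL0B04686g) (1.04), FTR1 (0.99), CCC2 (SAKL0G01650g) (0.92), ERT1 (0.84), DIM1 (0.83), CTH1 (0.83), DBP8 (0.81), DBP6 (0.76) and MIC17 (0.74). The lower ones were MDH1 (-0.73), NFU1 (-0.86), SAKL0B05940g (-0.96), IMA1 (SAKL0A05698g) (-1.03), UGA4 (SAKL0G14762g) (-1.19), IMA5 (SAKL0C00176g) (-1.22), IMA1 (SAKL0C02112g) (-1.30), IMA5 (SAKL0A00154g) (-1.34), RGT2 (SAKL0B00264g) (-1.6), CTR3 (-1.73) and BIO3 (SAKL0H11528g) (-1.93).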

How the results depend on the processing

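None of the called genes named by rule or picked afterwards changed sign under these alternatives. On the dimmer probe 2 other called genes did, SAKL0F00132g (1.31, against -0.69) and SAKL0B12804g (0.13, against -1.12). Under other scalings, probes, filters, weights and tests at the same adjusted threshold, 107 to 142 genes were called in place of 121, and 146 by the methods' t-test without adjustment. These were not all the same genes. Of the 121, 79 were called again on the dimmer probe, 91 with the mean of both probes, 93 after normexp and 101 with array weights. The other settings of this kind kept 102 to 121. With no fold threshold 348 were called (235 higher, 113 lower), and at 2-fold 29 (21 higher, 8 lower). After normexp, 106 were called higher and 21 lower. Leaving out 1 array gave 85 to 133 calls, 60 to 92 higher and 19 to 41 lower; the lower count was 19 without WT YPGly replicate 3 and 21 without SEF1-VP16 YPGly replicate 3. Without both SEF1-VP16 replicate 3 and WT replicate 2, which deviated together (r = 0.77) and were chosen after seeing the data, 66 were called (52 higher, 14 lower). Of 59 called genes named by rule, 45 kept their call on the dimmer probe, 46 without SEF1-VP16 YPGly replicate 4 and 40 without those 2 arrays. Of 23 called genes picked after their values were seen, 10 kept theirs without those 2. CIT1, RIM2, JEN1 (SAKL0D04510g), ARN1 and FAS2 (SAKL0E08580g) lost theirs most often.

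The interaction moved more. At 2-fold it was called for 21 genes (7 higher, 14 lower), and it was called higher for 52 genes after quantile normalization and 16 on the dimmer probe. Leaving out 1 array gave 26 to 98 genes, 11 to 63 higher and 15 to 42 lower. The count was 98 without WT YPD replicate 3, 96 without SEF1-VP16 YPD replicate 4, 32 without SEF1-VP16 YPD replicate 3, and 31, 26 and 33 without WT YPGly replicates 1, 2 and 3. It was 34 and 27 without SEF1-VP16 YPGly replicates 3 and 4. The causes were not tested.

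With the replicate number as a block, 110 genes were called (75 higher, 35 lower) and the interaction for 43, 22 of them higher. Deviations of same-numbered arrays correlated at 0.07, -0.55, -0.53 and 0.29, so the numbers were not taken as pairs.

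List medians that moved by more than the spread between arrays were, after quantile normalization, 0.77 for the TCA cycle, 0.076 for ribosomal proteins, 0.24 for ranks 1 to 50, -0.010 beyond rank 200 (0.03 before, a change of sign) and 0.094 for genes lowered by low iron. After normexp they were 0.44 for carriers, 0.68 for siderophore transport, -0.058 for hexose transport, -0.55 for disaccharides and galactose, 0.067 for ranks 51 to 200, 0.27 for divergent partners and 0.068 for genes raised by low iron (-0.01 before, also a change of sign). On the dimmer probe they were 0.43 for carriers, 0.33 for permeases and oxidases, 0.33 for siderophore transport, 0.13 for divergent partners and 0.090 for genes lowered by low iron, and with the mean of both probes 0.16 for divergent partners. The medians of other lists are not given. The median of all genes was 0.06 after normexp, and signal near background limits the dimmest genes.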
